A study of Homo sapiens with 4 samples.

Results

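The genes examined here are 46 interferon-stimulated genes, chosen by symbol as well-known targets of interferon, and 45 of them were measured among 18417 genes on expression arrays of prostate cancer cells. A gene counted as measured when a probe set carried its symbol alone, under its current or former name, and where several did, the brightest on average was taken. GBP1 shared its probe set with other genes and was not measured, and DDX58 appears under its current symbol RIGI. The cells carried the label PC3, which is an established prostate carcinoma line that was derived from metastatic bone tissue. PC3-PDEF cells were stably transfected to over-express PDEF, an ETS transcription factor encoded by SPDEF, and PC3-SCR cells, which the paper calls VC-PC3, are described as carrying the empty pBABE vector, although SCR in their label names no vector and is not explained in the sources used here. Both were grown in the same medium with serum, no interferon treatment is mentioned in the labels or the paper, and each group had 2 arrays. Whether the cells of a group were a clone or a pool, and whether its arrays came from separate cultures, is not given in the sources used here.

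Interferons are cytokines that are released upon infection and bind receptors on the cell surface. The receptor-bound kinases then phosphorylate STAT proteins, which join IRF9 to form a complex that binds the interferon-stimulated response element in the promoters of target genes. The targets sense foreign RNA and DNA, degrade or trap viral RNA, modify proteins with the ubiquitin-like ISG15 and amplify the signal itself. Tumour lines can express a part of this set without infection.

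The values are log2 array signals, on which a difference of 1 is a 2-fold difference. Groups were compared with limma, a linear model fitted over all genes, and a gene was called at a Benjamini-Hochberg adjusted p under 0.05. SE stands for the standard error of a difference. SPDEF had signals of 6.85 and 6.73 in PC3-PDEF arrays, against 5.99 and 6.06 in PC3-SCR arrays, and was 1.70-fold higher (limma, adjusted p = 0.000563). CTNNA1 and STAT3, whose loss by homozygous deletion is well known in PC3 cells, had signals of 9.05 to 9.86 in the PC3-PDEF arrays and of 4.07 to 4.77 in the PC3-SCR arrays. The PC3-PDEF arrays therefore go against their PC3 label for these genes, and an effect of PDEF cannot be told apart from a difference in the cells used. All results below rest on these arrays, and no other PC3-PDEF arrays were analysed here. The arrays read bulk RNA, in which fewer cells of a type and less RNA per cell cannot be told apart. Of the 4 epithelial markers, KRT8 and KRT18 lay between 8.88 and 9.91 in all 4 arrays, with KRT8 lower by 0.64 (adjusted p = 0.000852). EPCAM had signals of 5.65 and 6.53 in PC3-PDEF arrays, against 7.81 and 7.74 in PC3-SCR arrays (log2 fold change -1.69, adjusted p = 0.00212, a call lost without at least 1 array), and CDH1 was under the gauge of background given next in every array. As a gauge of background, the highest signal of 338 olfactory receptor genes was taken, a family not expected to be active in prostate cells. It was 5.65 and 5.75 in PC3-PDEF arrays and 5.94 and 6.01 in PC3-SCR arrays. The median of these genes was 3.265 and 3.235 in PC3-PDEF arrays, against 3.385 and 3.335 in PC3-SCR arrays. Whether small falls under the gauge include this offset was not tested. SPDEF lay just above the gauge in PC3-SCR arrays, and the size of its difference is not exact.

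Most of the interferon-stimulated genes were lower in PC3-PDEF arrays, and a smaller group was higher. At the called level 27 of 45 members, or 60.0%, were lower, while 24.0% of all genes were lower. In the other direction 6 members, or 13.3%, were higher, while 26.7% of all genes were higher, and 12 members did not pass. The median log2 fold change was -0.78 over the members and -0.05 over all genes. A measured difference of at least 1 in log2 units accompanied the call for 19 lower members (6.07% of all genes) and 3 higher members (8.67% of all genes). Both PC3-PDEF arrays lay below both PC3-SCR arrays for 32 members (39.7% of all genes) and above them for 8 (35.0% of all genes), while 74.7% of all genes did not overlap in either direction. Of the 45 members, 21 were above the olfactory receptor gauge in none of the 4 arrays, and the sizes of their differences are not exact. Among these, 12 were lower and 1 was higher (24.0% and 26.7% of all genes at any signal level). Over all genes, 7179 were likewise above the gauge in no array, and the shares called among them were not computed. Of the 8 members above the gauge in all 4 arrays, IFI6, ISG15, UBE2L6, IRF7 and IRF9 were lower, HERC5 was higher, and EIF2AK2 and TRIM21 did not pass. Where a member was above the gauge in one group only, a minimum fold is given, with the dim group set to the gauge or to its own signal, whichever was higher. Of the 19 lower members with a measured difference of at least 1, 3 were above the gauge in both groups, 6 had a minimum fold of at least 2, OAS1 and PARP12 had a smaller minimum fold, and 8 were not above the gauge in either group. Of the 3 higher ones, HERC5 and IFITM1 were above the gauge in both groups and IFIT5 had a minimum fold under 2.

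**Figure D1:**
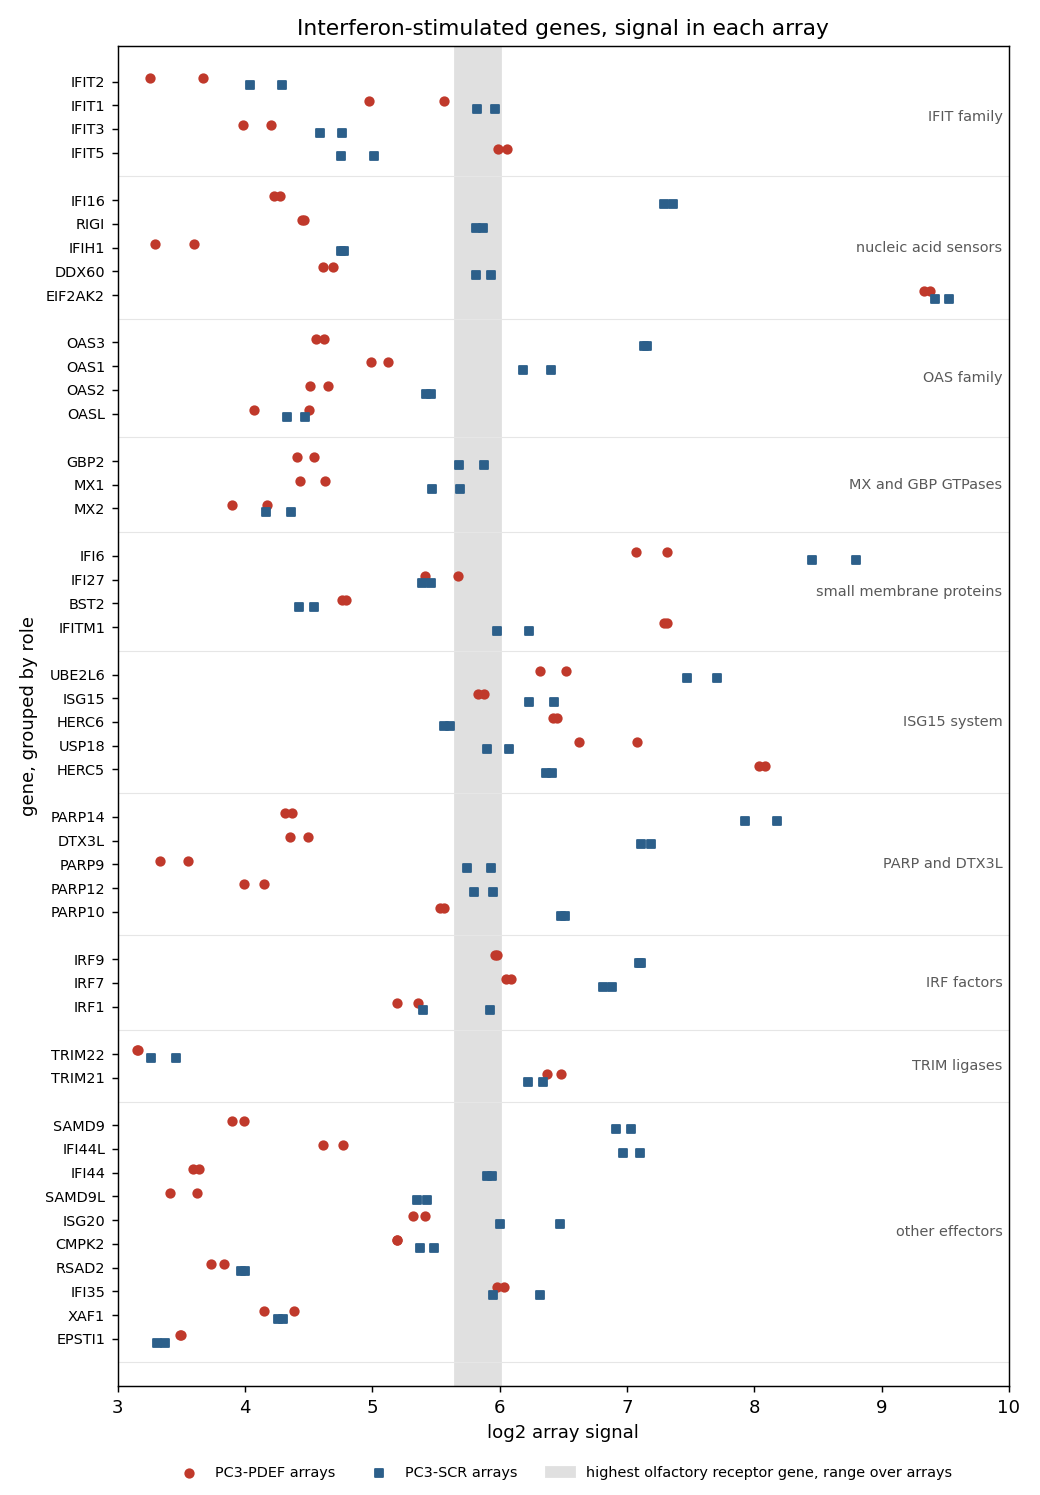
Log2 array signal (horizontal axis) of each of the 45 measured interferon-stimulated genes (vertical axis, grouped by role) in the 2 PC3-PDEF arrays (circles) and the 2 PC3-SCR arrays (squares), with the range of the highest olfactory receptor gene over the arrays as a grey band. PARP14 lies at 4.31 and 4.37 in PC3-PDEF and at 8.18 and 7.93 in PC3-SCR, while HERC5 lies at 8.04 and 8.08 in PC3-PDEF and at 6.36 and 6.41 in PC3-SCR.

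The sequences that interferon signalling is known to use were looked up in the RefSeq promoter table (GRCh38.p14), which lists 250 bases before and 50 after each transcription start. Of the members, 36 had an entry there. The core of the interferon-stimulated response element was searched on both strands as GAAA, any 2 bases and GAAA, which reads as TTTC, any 2 bases and TTTC on the other strand. It was found for 25 of these 36 members (69.4%), against 4.38% of the 27305 genes in the table. By direction, 16 of 22 lower members, 4 of 5 higher members and 5 of 9 members that did not pass held it. The gamma-activated site, which STAT dimers bind, was searched as TTCNNNGAA and found for 11 of the 36 members (30.6%), against 9.38% of all genes in the table. Of its 13 matches in members, 6 overlapped a match to the response element core. The members were listed because interferon induces them, so the share with the element describes the list, and a match is a match of letters only.
Promoters are printed for neighbours that differed in direction (IFIT1 and IFIT5), for the strongest rise (HERC5), for strong falls (PARP14, SAMD9 and the shared PARP9 and DTX3L start region) and for ISG15, with capitals marking each match to the response element core. Each run is read 5′ to 3′ on the strand of its gene and ends at the base before the start, except that of IFIT5, which goes on to the 6th transcribed base to complete a match.
IFIT1, chr10:89392473-89392622, plus strand: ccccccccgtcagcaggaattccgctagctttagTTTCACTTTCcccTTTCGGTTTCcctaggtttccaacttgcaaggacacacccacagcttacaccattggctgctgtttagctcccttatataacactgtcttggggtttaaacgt
IFIT5, chr10:89414418-89414573, plus strand: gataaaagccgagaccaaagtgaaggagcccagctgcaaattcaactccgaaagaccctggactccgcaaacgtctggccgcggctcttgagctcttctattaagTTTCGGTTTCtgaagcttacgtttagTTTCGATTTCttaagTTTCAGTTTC
HERC5, chr4:88456969-88457118, plus strand: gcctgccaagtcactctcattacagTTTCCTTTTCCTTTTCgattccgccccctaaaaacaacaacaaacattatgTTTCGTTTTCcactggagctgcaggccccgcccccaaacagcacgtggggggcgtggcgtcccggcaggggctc
PARP14, chr3:122680689-122680838, plus strand: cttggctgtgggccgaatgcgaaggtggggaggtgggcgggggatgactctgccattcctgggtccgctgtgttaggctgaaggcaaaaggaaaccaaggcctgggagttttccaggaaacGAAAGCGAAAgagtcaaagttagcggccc
SAMD9, chr7:93117980-93118129, minus strand: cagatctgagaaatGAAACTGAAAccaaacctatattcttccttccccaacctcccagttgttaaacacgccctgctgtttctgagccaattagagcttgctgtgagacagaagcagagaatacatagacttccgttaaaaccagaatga
ISG15, chr1:1013347-1013496, plus strand: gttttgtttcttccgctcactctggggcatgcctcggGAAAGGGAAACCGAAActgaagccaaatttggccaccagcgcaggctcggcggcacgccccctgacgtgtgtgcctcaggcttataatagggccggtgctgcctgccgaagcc
PARP9, chr3:122564301-122564341, minus strand: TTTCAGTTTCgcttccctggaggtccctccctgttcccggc
Relative to the start, the matches lay at -116 and -103 in IFIT1, at -45, -19 and -4 in IFIT5, and at -125, -119 and -74 in HERC5, counted at their first base. The HERC5 matches at -125 and -119 overlap each other, as do those at -113 and -107 in ISG15. PARP14 had its match at -29 and SAMD9 at -136. PARP9 and DTX3L are read in opposite directions from starts 38 bases apart, and the same 10 bases form the PARP9 match at -41 and the DTX3L match at -6. IFI16, RIGI, SAMD9L, OAS1, UBE2L6 and IRF9, which were lower, and HERC6, which was higher, had no match in this window.

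The PARP and DTX3L group fell throughout. PARP14, PARP9, PARP12 and PARP10 encode enzymes or binding proteins of the ADP-ribosylation system, and DTX3L encodes a ubiquitin ligase that works as a partner of PARP9. All 5 were lower at the called level (24.0% of all genes), with a median log2 fold change of -2.40. PARP14 had signals of 4.31 and 4.37 in PC3-PDEF arrays, against 8.18 and 7.93 in PC3-SCR arrays. The log2 fold change was -3.71 (SE 0.11, adjusted p = 3.71e-06, limma), the largest fall among the members, and amounted to at least 5.12-fold. DTX3L had signals of 4.49 and 4.35 in PC3-PDEF arrays, against 7.11 and 7.19 in PC3-SCR arrays, -2.73 in log2 units (SE 0.091, adjusted p = 5.14e-06) and a level at least 2.73-fold lower. PARP9, its partner, had signals of 3.33 and 3.55 in PC3-PDEF arrays and of 5.74 and 5.93 in PC3-SCR arrays, not above the gauge in either group. PARP9 fell by 2.40 (SE 0.11, adjusted p = 1.68e-05). PARP12 had signals of 4.15 and 3.99 in PC3-PDEF arrays, against 5.95 and 5.80 in PC3-SCR arrays. It fell by 1.80 (SE 0.10), with 1 PC3-SCR array above the gauge and at least 1.13-fold, and PARP10 by 0.95 (SE 0.080), at least 1.74-fold. PARP9, DTX3L and PARP14 lie in 1 run of neighbouring genes on chromosome 3, with 1 other coding gene between DTX3L and PARP14. Both PC3-PDEF arrays lay below both PC3-SCR arrays for each gene of the group, as for 39.7% of all genes, while 74.7% of all genes did not overlap in either direction.

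The sensors of foreign nucleic acid were lower, with EIF2AK2 as the exception. IFI16, a DNA sensor, had signals of 4.23 and 4.27 in PC3-PDEF arrays, against 7.36 and 7.29 in PC3-SCR arrays. IFI16 fell by 3.08 in log2 units (SE 0.082, adjusted p = 3.22e-06, limma), at least 3.08-fold. RIGI, the RNA helicase that detects viral RNA ends, had signals of 4.46 and 4.45 in PC3-PDEF arrays, against 5.87 and 5.81 in PC3-SCR arrays, all of them under the gauge, and fell by 1.38 (SE 0.081). IFIH1, which encodes the long double-stranded RNA sensor MDA5, had signals of 3.29 and 3.60 in PC3-PDEF arrays and of 4.75 and 4.78 in PC3-SCR arrays, and fell by 1.32 (SE 0.12). DDX60, a helicase linked to RIGI signalling, had signals of 4.61 and 4.69 in PC3-PDEF arrays and of 5.81 and 5.93 in PC3-SCR arrays, and fell by 1.22 (SE 0.089). IFIH1 and DDX60 were also under the gauge in all 4 arrays. EIF2AK2, which encodes the kinase PKR, was bright in both groups. Its signals were 9.33 and 9.38 in PC3-PDEF arrays and 9.42 and 9.53 in PC3-SCR arrays, a log2 fold change of -0.12 with a 95% interval from -0.33 to 0.09 (adjusted p = 0.292).

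The OAS genes encode enzymes that make a second messenger upon binding double-stranded RNA, which activates an RNA-degrading nuclease. OAS3 had signals of 4.62 and 4.56 in PC3-PDEF arrays, against 7.16 and 7.13 in PC3-SCR arrays. It fell by 2.56 in log2 units (SE 0.082, adjusted p = 4.48e-06, limma), at least 2.72-fold. OAS1 had signals of 4.99 and 5.12 in PC3-PDEF arrays, against 6.40 and 6.18 in PC3-SCR arrays, and fell by 1.24 (SE 0.11), at least 1.51-fold. OAS2 had signals of 4.51 and 4.65 in PC3-PDEF arrays and of 5.42 and 5.46 in PC3-SCR arrays, under the gauge in both groups, and fell by 0.86 (SE 0.089). OAS1, OAS3 and OAS2 are direct neighbours on chromosome 12, and all were called lower (24.0% of all genes). Both PC3-PDEF arrays lay below both PC3-SCR arrays for each of them, as for 39.7% of all genes. OASL, a catalytically inactive relative, had signals of 4.50 and 4.07 in PC3-PDEF arrays and of 4.47 and 4.33 in PC3-SCR arrays, which overlapped (log2 fold change -0.12, adjusted p = 0.561).

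The dynamin-like MX GTPases block viral particles and the guanylate-binding proteins attack membranes around microbes. MX1 had signals of 4.43 and 4.63 in PC3-PDEF arrays, against 5.47 and 5.69 in PC3-SCR arrays, and fell by 1.05 in log2 units (SE 0.12, adjusted p = 0.000453, limma). MX2, its neighbour on chromosome 21, had signals of 4.17 and 3.90 in PC3-PDEF arrays and of 4.36 and 4.16 in PC3-SCR arrays, which overlapped (log2 fold change -0.23, adjusted p = 0.179). GBP2 had signals of 4.54 and 4.41 in PC3-PDEF arrays, against 5.88 and 5.68 in PC3-SCR arrays, and fell by 1.30 (SE 0.10). A further GBP2 probe set had a difference of -0.63. MX1, MX2 and GBP2 were not above the gauge in any array.

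The IFIT proteins bind viral RNA that lacks the host's cap marks. IFIT5 differed in direction from the other members of this family. IFIT5 had signals of 6.06 and 5.99 in PC3-PDEF arrays, against 4.75 and 5.01 in PC3-SCR arrays. It rose by 1.15 in log2 units (SE 0.11, adjusted p = 0.000253, limma), at least 1.04-fold with the PC3-SCR arrays set to the gauge. IFIT1 had signals of 4.97 and 5.56 in PC3-PDEF arrays and of 5.82 and 5.96 in PC3-SCR arrays, and fell by 0.62 (SE 0.19, adjusted p = 0.0331). IFIT2 had signals of 3.67 and 3.25 in PC3-PDEF arrays and of 4.29 and 4.04 in PC3-SCR arrays, and fell by 0.70 (SE 0.16, adjusted p = 0.0108). IFIT3 had signals of 3.98 and 4.20 in PC3-PDEF arrays and of 4.76 and 4.59 in PC3-SCR arrays, and fell by 0.58 (SE 0.11, adjusted p = 0.00526). The falls of IFIT1, IFIT2 and IFIT3 lay under the gauge in every array. With 1 array left out at a time, the adjusted p ran from 0.0297 to 0.283 for IFIT1 (past the threshold only without PC3-PDEF replicate 2), from 0.0479 to 0.171 for IFIT2 (only without PC3-PDEF replicate 1) and from 0.0498 to 0.0924 for IFIT3 (only without PC3-PDEF replicate 2). IFIT5 kept its call in these fits, its adjusted p lying between 0.0139 and 0.0383. The genes lie together on chromosome 10 in the order IFIT2, IFIT3, IFIT1 and IFIT5. Of 8 runs of neighbouring members, this run alone had calls in opposite directions. The runs of CMPK2 with RSAD2 and of MX2 with MX1 held at most 1 called member and could not show such calls.

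The ISG15 system was divided. ISG15 is a ubiquitin-like protein, UBE2L6 its conjugating enzyme, HERC5 its main ligase in human cells, HERC6 a relative of HERC5, and USP18 the protease that removes ISG15 and also dampens the interferon receptor. HERC5 had signals of 8.04 and 8.08 in PC3-PDEF arrays, against 6.36 and 6.41 in PC3-SCR arrays. It was 3.19-fold higher, 1.68 in log2 units (SE 0.081, adjusted p = 1.76e-05, limma), the largest rise among the members. HERC6, its neighbour on chromosome 4, had signals of 6.45 and 6.42 in PC3-PDEF arrays, against 5.61 and 5.56 in PC3-SCR arrays, and rose by 0.85 (SE 0.081), at least 1.38-fold. USP18 had signals of 6.62 and 7.08 in PC3-PDEF arrays, against 6.07 and 5.90 in PC3-SCR arrays, and rose by 0.86 (SE 0.16, adjusted p = 0.00456). ISG15 itself was lower, with signals of 5.88 and 5.83 in PC3-PDEF arrays, against 6.23 and 6.43 in PC3-SCR arrays, and fell by 0.47 (SE 0.098, adjusted p = 0.00748). UBE2L6 had signals of 6.52 and 6.32 in PC3-PDEF arrays, against 7.47 and 7.71 in PC3-SCR arrays, and was 2.25-fold lower (log2 fold change -1.17, SE 0.12). The groups did not overlap for any of these 5 genes, as for 74.7% of all genes. Without PC3-PDEF replicate 2, PC3-SCR replicate 1 or PC3-SCR replicate 2, the adjusted p of USP18 was 0.0569 to 0.124. For ISG15 it was 0.0531 to 0.113 without either PC3-PDEF array or without PC3-SCR replicate 2.

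The small membrane proteins also went both ways. IFITM1, which restricts virus entry at the cell surface, had signals of 7.31 and 7.29 in PC3-PDEF arrays, against 6.23 and 5.98 in PC3-SCR arrays, with 1 of the PC3-SCR arrays above the gauge, and was 2.29-fold higher (log2 fold change 1.20, SE 0.11, adjusted p = 0.000184, limma). IFI6, an inhibitor of apoptosis in the endoplasmic reticulum and mitochondria, had signals of 7.31 and 7.07 in PC3-PDEF arrays, against 8.80 and 8.45 in PC3-SCR arrays, and was 2.70-fold lower (log2 fold change -1.44, SE 0.14, adjusted p = 0.000303). IFITM1 has close copies in IFITM2 and IFITM3, and probes of such genes can share signal. IFITM2 and IFITM3 went the other way. IFITM2 had signals of 7.45 and 7.20 in PC3-PDEF arrays, against 8.42 and 8.09 in PC3-SCR arrays, and its fall of 0.93 (adjusted p = 0.00192) was lost in 3 of the 4 fits that left out an array. IFITM3 had signals of 5.90 and 5.81 in PC3-PDEF arrays, against 8.57 and 8.43 in PC3-SCR arrays. BST2, which encodes the tether tetherin, had signals of 4.76 and 4.79 in PC3-PDEF arrays, against 4.54 and 4.42 in PC3-SCR arrays, under the gauge throughout. Its rise of 0.29 (adjusted p = 0.0297) did not pass in any fit that left out an array (adjusted p from 0.0544 to 0.147). IFI27 overlapped between the groups (log2 fold change 0.11, adjusted p = 0.423).

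Of the transcription factors, IRF9 is the DNA-binding partner of the STAT proteins in the response complex, IRF7 drives interferon alpha genes and IRF1 acts downstream of interferon gamma. IRF9 had signals of 5.98 and 5.96 in PC3-PDEF arrays, against 7.11 and 7.09 in PC3-SCR arrays, and was 2.19-fold lower (log2 fold change -1.13, SE 0.080, adjusted p = 7.07e-05, limma). IRF7 had signals of 6.05 and 6.09 in PC3-PDEF arrays, against 6.81 and 6.88 in PC3-SCR arrays, and was 1.71-fold lower (log2 fold change -0.78, SE 0.082). For IRF1 the signals were 5.19 and 5.36 in PC3-PDEF arrays and 5.92 and 5.40 in PC3-SCR arrays (log2 fold change -0.39, adjusted p = 0.113). The IRF1 value was -0.12 without PC3-SCR replicate 1 (adjusted p = 0.452) and -0.64 without PC3-SCR replicate 2, where it passed (adjusted p = 0.0456). The ubiquitin ligase genes TRIM21 and TRIM22 had log2 fold changes of 0.15 (95% interval from -0.08 to 0.37) and -0.20 (95% interval from -0.44 to 0.03) and did not pass.

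The other effectors held some of the strongest falls. SAMD9 and SAMD9L, neighbours on chromosome 7, encode antiviral proteins that also restrain growth. SAMD9 had signals of 3.99 and 3.90 in PC3-PDEF arrays, against 7.03 and 6.91 in PC3-SCR arrays, and fell by 3.02 in log2 units (SE 0.090, adjusted p = 3.84e-06, limma), at least 2.41-fold. SAMD9L had signals of 3.41 and 3.62 in PC3-PDEF arrays, against 5.35 and 5.43 in PC3-SCR arrays, and fell by 1.88 (SE 0.10). IFI44L had signals of 4.77 and 4.61 in PC3-PDEF arrays, against 7.10 and 6.97 in PC3-SCR arrays, and fell by 2.34 (SE 0.098), at least 2.52-fold. Its relative and neighbour on chromosome 1, IFI44, had signals of 3.59 and 3.64 in PC3-PDEF arrays, against 5.94 and 5.90 in PC3-SCR arrays, and fell by 2.31 (SE 0.081). SAMD9L and IFI44 were not above the gauge in either group. ISG20, an RNA exonuclease gene, fell by 0.87 (adjusted p = 0.00409), at least 1.45-fold. Its adjusted p was 0.129 when PC3-PDEF replicate 1 was left out and 0.114 when PC3-PDEF replicate 2 was left out. RSAD2 (viperin) and CMPK2, neighbouring genes on chromosome 2 for an antiviral nucleotide-making enzyme and a nucleotide kinase, did not pass, with differences of -0.21 for RSAD2 (adjusted p = 0.0882) and of -0.24 for CMPK2 (adjusted p = 0.0601). Median centring of the arrays, which shifted all members alike, gave -0.28 for RSAD2 (adjusted p = 0.0329) and -0.31 for CMPK2 (adjusted p = 0.0235), and CMPK2 also passed after quantile normalization (adjusted p = 0.0377). XAF1, EPSTI1 and IFI35 lay between -0.13 and 0.15 and did not pass, though EPSTI1 passed as higher after quantile normalization (0.24, adjusted p = 0.0435).

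**Figure D2:**
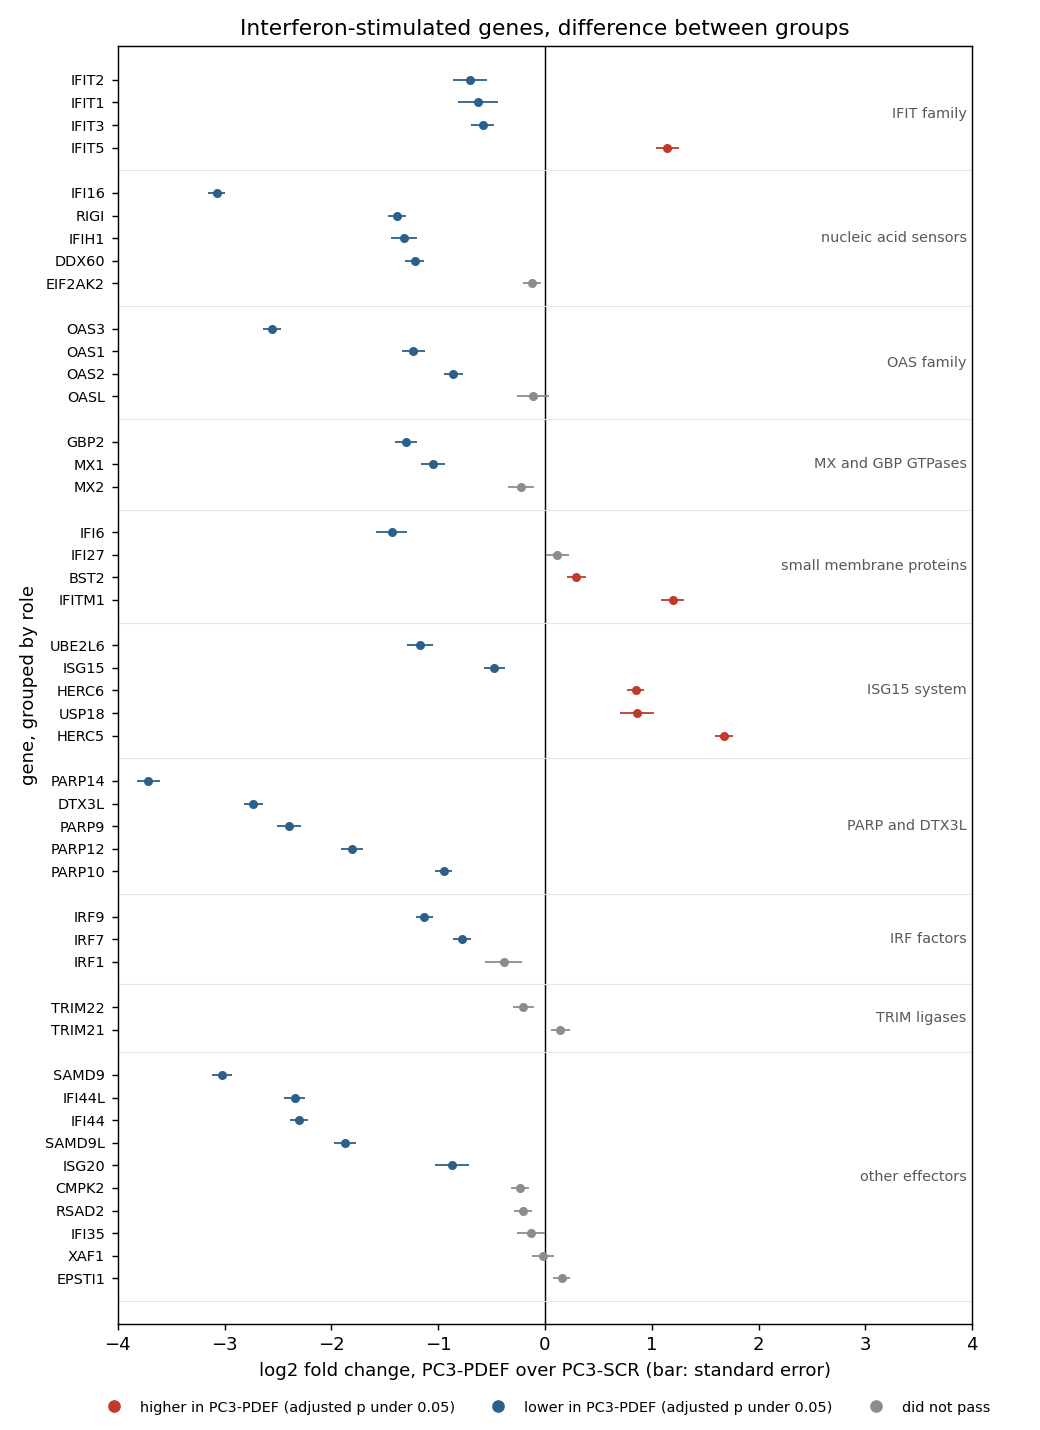
Log2 fold change of PC3-PDEF over PC3-SCR (horizontal axis, bars showing the SE, 2 arrays per group) for each measured interferon-stimulated gene (vertical axis, grouped by role), in blue where lower, red where higher and grey where the gene did not pass. The PARP and DTX3L group lies wholly on the lower side, down to PARP14 at -3.71, while IFIT5, IFITM1, BST2, USP18, HERC6 and HERC5 lie on the higher side, up to 1.68.

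Genes before and beside the response in the pathway were then examined by role, 96 measured genes on 6 lists. Apart from IFNL3, the interferon genes themselves gave little signal. Of 16 measured, 15 were above the gauge in none of the 4 arrays, 3 were lower and none was higher at the called level (limma, 24.0% and 26.7% of all genes). At an unadjusted p under 0.05, 4 were lower and none was higher. The calls of IFNA10 (-0.61), IFNL3 (-0.44) and IFNA13 (-0.27) were each lost in at least 1 fit that left out an array. IFNL3 was above the gauge in all 4 arrays, with signals of 6.99 and 7.10 in PC3-PDEF arrays, against 7.46 and 7.50 in PC3-SCR arrays. IFNB1 had signals of 2.72 and 2.80 in PC3-PDEF arrays and of 2.81 and 3.05 in PC3-SCR arrays.
Among the 6 receptors measured, 4 were higher (26.7% of all genes) and the others did not pass. IFNAR2 had signals of 7.80 and 7.92 in PC3-PDEF arrays, against 6.74 and 6.77 in PC3-SCR arrays, and was 2.15-fold higher (log2 fold change 1.11, SE 0.087, adjusted p = 0.000107). IFNAR1, its partner in the receptor for type I interferon, had signals of 8.85 and 9.01 in PC3-PDEF arrays, against 7.85 and 8.07 in PC3-SCR arrays (log2 fold change 0.97, SE 0.11). The interferon gamma receptor gene IFNGR1 rose by 1.05 (SE 0.10), while IFNGR2 had a log2 fold change of 0.04 (95% interval from -0.19 to 0.26). IL10RB rose by 0.35 (adjusted p = 0.0160), with 3 of the 4 fits that left out an array not passing, and IFNLR1 had 0.06 (adjusted p = 0.729).
The kinase genes bound to these receptors were lower or did not pass. TYK2 had signals of 8.21 and 8.12 in PC3-PDEF arrays, against 9.03 and 9.07 in PC3-SCR arrays, and was 1.85-fold lower (log2 fold change -0.88, adjusted p = 0.000241). JAK2 fell by 0.58 (adjusted p = 0.00541), a call lost without either PC3-PDEF array, and JAK1 had -0.19 (adjusted p = 0.0911). Of the 6 inhibitors measured, 5 were lower and 1 was higher (24.0% and 26.7% of all genes). The lower ones were PTPN2 (-1.70), SOCS3 (-1.56), PTPN6 (-1.18), SOCS1 (-1.05) and PTPN1 (-0.46), and the higher one was PIAS1 (0.54).
Of 19 genes that act before interferon is made, 11 were lower (57.9%, against 24.0% of all genes). There were 2 higher (10.5%, against 26.7% of all genes) and 6 did not pass. The DNA sensor gene CGAS had signals of 4.12 and 3.85 in PC3-PDEF arrays, against 6.85 and 6.63 in PC3-SCR arrays, and fell by 2.75 (SE 0.13, adjusted p = 1.50e-05), at least 2.06-fold. STING1, its downstream adaptor, had signals of 6.22 and 6.31 in PC3-PDEF arrays, against 7.01 and 7.10 in PC3-SCR arrays (log2 fold change -0.79, adjusted p = 0.000454). The adaptor gene MYD88 fell by 1.74, the kinase gene IKBKE by 1.13 and the RIGI ligase gene TRIM25 by 0.81, while IRF3 fell by 0.44 (adjusted p = 0.00591). TBK1, the kinase that activates IRF3, rose by 1.20, with signals of 7.82 and 7.99 in PC3-PDEF arrays, against 6.73 and 6.68 in PC3-SCR arrays. TRAF6 rose by 0.29 (adjusted p = 0.0488), which no fit with an array left out retained. Of the 11 lower genes, MYD88, STING1, CGAS and TRIM25 kept the call whichever array was left out. The call of IKBKE was lost without either PC3-PDEF array, that of IRF3 without either PC3-PDEF array or PC3-SCR replicate 2, and those of AIM2, IRF5, TICAM1, TLR3 and ZBP1 without at least 1 array.

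**Figure D3:**
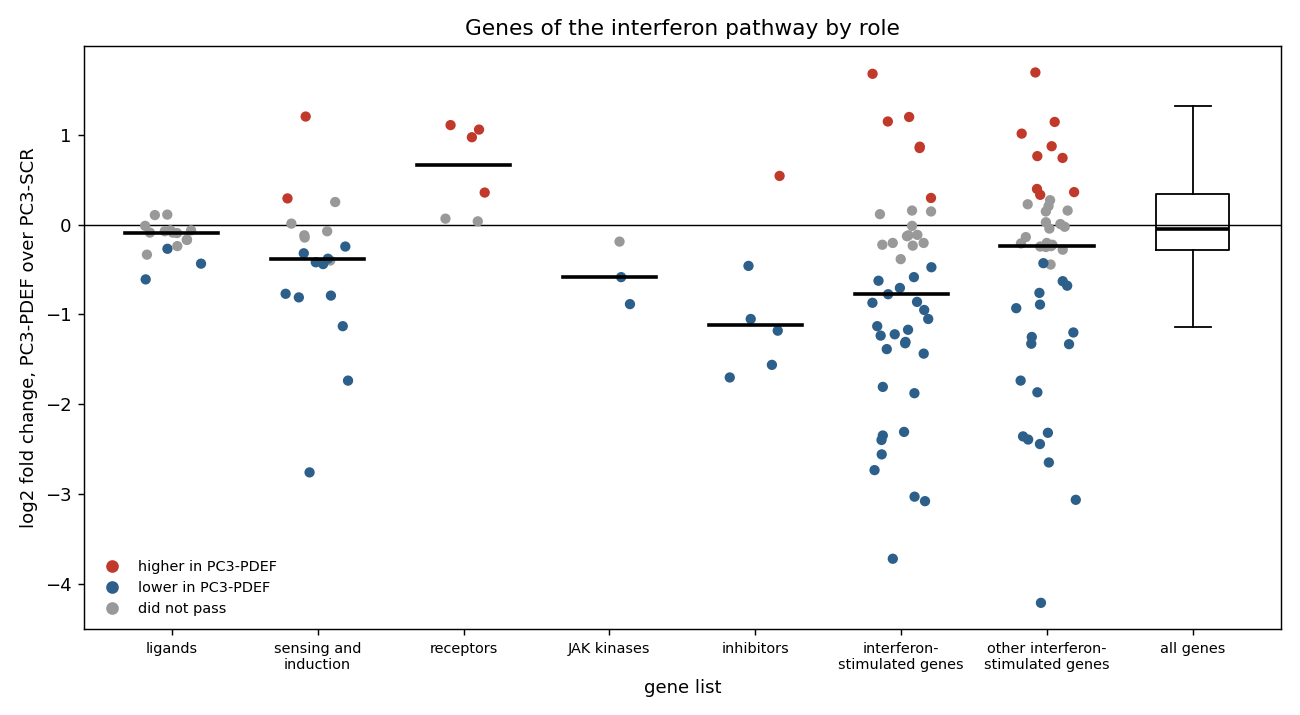
Log2 fold change of PC3-PDEF over PC3-SCR (vertical axis) of each measured gene (points, red where higher, blue where lower, grey where not passed) by list (horizontal axis), with the list median as a line and all 18417 genes as a box (quartiles and median, whiskers at the 5th and 95th percentiles). The receptor list has a median of 0.66, the inhibitors -1.11 and the interferon-stimulated genes -0.78, against -0.05 over all genes.

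A further list of 46 measured interferon-stimulated genes outside the 45 members had 19 lower (41.3%), 9 higher (19.6%) and 18 not passing. Over all genes 24.0% were lower and 26.7% higher. The list had a median log2 fold change of -0.24, against -0.05 over all genes. By measured difference, the first 4 falls were those of SLFN11, which blocks viral protein synthesis and sensitises cells to DNA damage (-4.21, at least 5.45-fold), the guanylate-binding protein gene GBP3 (-3.06, at least 4.94-fold), IFITM3 (-2.65) and the signalling modulator NMI (-2.44, at least 1.40-fold). LGALS3BP (5.24-fold lower) and SLFN5 (4.98-fold lower) were above the gauge in all 4 arrays. The first 4 rises were those of the RNA helicase gene MOV10 (1.69), the antiviral zinc finger gene ZC3HAV1 (1.14), PARP11 (1.01, at least 1.15-fold) and the lysosomal reductase gene IFI30 (0.87). PARP11 thus went the other way from the PARP genes among the members.
Markers of other cell types were read on the same arrays. Of 10 immune cell markers measured, none was called in either direction (limma, 50.7% of all genes), and only NKG7 was above the gauge, in all 4 arrays. At an unadjusted p under 0.05, CD14 alone was lower. PTPRC, carried by all white blood cells, had signals of 2.78 to 2.85 in PC3-PDEF arrays and of 2.68 to 2.85 in PC3-SCR arrays. The summed linear signal of the immune list was 205 to 216 in PC3-PDEF arrays and 219 to 224 in PC3-SCR arrays. For 6 markers of stroma and vessels it was 205 to 228 in PC3-PDEF arrays and 441 to 504 in PC3-SCR arrays. COL1A1 was the only one above the gauge, with signals of 7.29 and 7.10 in PC3-PDEF arrays, against 8.66 and 8.41 in PC3-SCR arrays. At the called level 4 of the 6 were lower and none was higher (24.0% and 26.7% of all genes). The part of these differences in the fall of the interferon-stimulated genes was not tested.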

How the data were processed

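RNA of PC3-PDEF and PC3-SCR cells (2 arrays each) was measured on Affymetrix human gene arrays. For 33297 probe sets the deposited values are log2 signals, which the authors obtained in Transcriptome Analysis Console (named in the submitters' processing notes). The version of the software, how background was corrected and how arrays were normalized: not given in the sources used here. That the base is 2 was taken from how far the values reach. Array medians of 5.41 to 5.46 were nearly equal, so the values were used as deposited, and a shift of all genes would have been removed by such scaling.

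Of the probe sets, 19460 carried 1 symbol and were used, 1754 carried several and 12083 are unnamed here, and the probe set with the highest mean stood for each of 18417 genes, low signals included. Genes were compared with limma 3.58.1 in R 4.3.3 (two-sided, 2 residual and 4.23 prior degrees of freedom) with Benjamini-Hochberg adjustment across the whole table. Separate cultures are stated in no source, and p-values thus reflect array-to-array spread that may be purely technical. Their number limits the precision, and 0.333 is the smallest two-sided p that exact permutation allows here. The fit was tested on simulated data with independent noise and few changed genes. That simulation does not test the p-values for technical repeats or for the many calls here. Alternatives were the replicate block, quantile normalization, median centring, a filter on low signals, the mean of probe sets, an intensity trend and leaving out each array.

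By rule, values per array are given for called members with a difference of at least 1 on the log2 scale and for the IFIT, OAS, MX and ISG15 groups. From the other lists the rule named the receptors, IRF3, JAK1, TYK2, IFNB1, STING1, CGAS and up to 4 called genes in each direction, and some items it covers are not reported here. Values of other genes (such as EIF2AK2, BST2, IRF1, IRF7, IFITM2, LGALS3BP, SLFN5, PTPN1 and the induction genes that lost a call) were added after they were seen. The members and lists were chosen with earlier results of these data known. Motifs and promoters came from RefSeq tables of GRCh38.p14.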

Additional observations from a re-analysis of the deposited data

How the results depend on the processing

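The direction of the members as a group did not turn under any alternative. Lower members numbered 26 with the replicate block, 28 after quantile normalization, 29 after median centring, 27 with the mean of probe sets or an intensity trend, and 23 to 24 with 1 array left out, and higher members 4 to 7 in all of these. Among genes above the median level only 10 members remained, of which 5 were lower and 3 higher, with a median log2 fold change of -0.45. In that fit 21 of 47 other pathway genes were lower and 18 higher. Of the 9208 genes in that fit, 32.7% were lower and 42.7% higher. With all genes, 40 of 96 other pathway genes (41.7%) were lower and 16 (16.7%) higher. The shares over all genes were 24.0% lower and 26.7% higher. With 1 array left out the members' median ran from -0.74 to -0.92, the calls over all genes from 5336 (without PC3-PDEF replicate 2) to 6460 (without PC3-SCR replicate 2), lower other pathway genes from 27 to 35, against 40 with all arrays, and higher other pathway genes from 10 to 13, against 16 with all arrays. A group of 1 array was there assumed to vary like the other group. Of the 33 called members, 26 passed in every fit that held them, and IFIT1, IFIT2, IFIT3, BST2, ISG15, ISG20 and USP18 did not.
The labels do not say whether replicates of the same number were handled together. The correlation of the deviations of the first replicates over genes was 0.022, a single value that cannot decide this. Quantile normalization split the calls over all genes into 4667 higher and 4736 lower and median centring into 4484 and 5589, against 4918 and 4419 as deposited. With the replicate block 7974 genes were called in place of 9337, 31 members in place of 33, IFIT1 having an adjusted p of 0.0521 and BST2 of 0.0655. With the 95th percentile of the olfactory receptor genes as gauge, 25 members were above background in both PC3-PDEF arrays and 37 in both PC3-SCR arrays, against 13 and 17 with the highest such gene. Signs turned for uncalled genes only, namely XAF1 after quantile normalization (0.0494) and, with 1 array left out, XAF1 (-0.13 to 0.10), IFI27 (-0.015 to 0.245), IFI35 (-0.315 to 0.055) and OASL (-0.33 to 0.10). Signals near background limit the size of a difference, and the cause of these shifts was not tested.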

Other observations

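GBP1, the member that was not measured, shares its probe set with GBP3 and the pseudogene GBP1P1. This probe set had signals of 6.08 and 6.18 in PC3-PDEF arrays and of 8.55 and 8.64 in PC3-SCR arrays. The signals of the genes cannot be told apart there.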
